A study of Homo sapiens with 15 samples.

Results

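Gene expression after knockdown of GRHL2 was compared with that after knockdown of TP63 or SOX2 in HCC95 cells, a cell line established from a human lung squamous cell carcinoma (LUSC). The comparison uses 9 of the 15 RNA-seq libraries of the study: the 3 libraries labelled siGRHL2a against the equally weighted mean of the 3 labelled siTP63b and the 3 labelled siSOX2b. All 9 count columns carry the same prefix in the deposited table and so form a single set, in which the siRNA target is the named difference. A gene was counted as differing in siGRHL2a when it differed from that mean and, in the same direction, from each of the other 2 knockdowns. Such a call does not say which of the groups had moved away from the control level. The remaining 6 libraries, 3 with the negative control siRNA (siNC1) and 3 with a siRNA against KLF5 (siKLF5b), carry no such prefix. Among counts of moderate size, 66.1% to 69.0% were even in the 9 libraries and 49.7% to 50.7% in these 6. The first principal component of all 15 libraries (66% of the variance) also separated these sets. Whether both sets were counted alike was not tested. Levels of siNC1, and of siKLF5b for a few genes, are given without a test, since the set of columns and the knockdown cannot be told apart.

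All cells were HCC95 without further genetic change in the labels, and they differed only in the siRNA named in the title. The labels give no dose and no time after transfection. Each target was reached with 1 siRNA, so effects of losing GRHL2 and other effects of that siRNA cannot be told apart. The labels give a replicate number for each library but do not say whether the replicates came from separate cultures, and p-values then measure the spread between these libraries, which may be technical. Total counts were 34229063, 32680538 and 32138582 in siGRHL2a, between 27713754 and 30366136 in siTP63b, and 32451002, 32520477 and 22255856 in siSOX2b.

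GRHL2 belongs to the grainyhead family of transcription factors, which bind enhancers and promoters of epithelial genes. It is known in lung and other epithelia for maintaining cell junctions, through genes such as CDH1, CLDN4 and other tight junction genes, and for opposing ZEB1 and the mesenchymal state. TP63 is the master regulator of basal and squamous epithelium and drives genes of the basal keratins and of cell adhesion to the basement membrane. SOX2 is amplified together with TP63 in many LUSC and supports the squamous identity of the tumour cells.

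The libraries carried the RNA of a squamous epithelial line. KRT5, the keratin of basal cells, had 9184 CPM (counts scaled to a common library total by the TMM method over all 15 libraries) in siGRHL2a, 5743 in siTP63b and 7467 in siSOX2b. EPCAM, an epithelial surface protein, lay at 215, 219 and 217 CPM in the same order. The fibroblast marker DCN, the alveolar marker SFTPC and the lymphocyte markers CD3E and CD79A had 0 counts in all 9 libraries. Other lung and immune markers were present. The immune marker PTPRC had 2 to 40 counts in these libraries, and the lung marker NKX2-1 had 148 to 352. The highest count of the endothelial marker PECAM1 in any of the 9 was 6. VWF, another endothelial marker, was present at 6.41, 5.86 and 3.55 CPM, and COL1A1, a fibroblast collagen, at 4.91, 4.35 and 5.22 CPM. As in any bulk measurement, fewer cells of a type and less RNA per cell cannot be told apart.

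The targeted RNA itself was only modestly lower in siGRHL2a. GRHL2 had 90.7, 91.8 and 91.0 CPM in the 3 siGRHL2a libraries, 119.9, 115 and 116 CPM in siTP63b, and 105, 99.5 and 95.9 CPM in siSOX2b. All siGRHL2a libraries lay below the other 6, with the gap to the lowest siSOX2b library smaller than the range within siSOX2b. The log2 fold change (log2FC) of GRHL2 against the mean of both knockdowns was -0.25 (SE 0.050, adjusted p = 3.99e-04, edgeR quasi-likelihood test with Benjamini-Hochberg adjustment over all genes). Against siTP63b it was -0.36 (adjusted p = 1.22e-05) and against siSOX2b it was -0.14 (adjusted p = 0.0946), so a difference in GRHL2 RNA from siSOX2b was not shown. In siNC1 GRHL2 stood at 134, 135 and 136 CPM. An exact two-sided permutation test of 3 against 3 libraries gave p = 0.1 for siGRHL2a against siTP63b and against siSOX2b, which is the smallest p that this design allows. GRHL2 protein was not analysed here.

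The targets of the comparison groups were lower in their own libraries. TP63 had 830.4 ± 28.2 CPM (SD, n = 3) in siGRHL2a, 363 ± 22.3 in siTP63b and 689 ± 38.2 in siSOX2b, without overlap between the 3 groups. Against siSOX2b, in which TP63 was not targeted, TP63 was higher in siGRHL2a by a log2FC of 0.27 (adjusted p = 4.55e-04). SOX2 had 20.1 ± 1.53 CPM in siGRHL2a, 29.5 ± 2.23 in siTP63b and 8.96 ± 1.63 in siSOX2b, and SOX2-OT, which overlaps it, held 129% of its counts. Both contrasts therefore also hold the knockdown of the other target, and the part of each siRNA in a difference cannot be told apart from a single contrast. KLF5, which none of the 9 libraries targeted, had a log2FC of -0.14 (adjusted p = 0.0612).

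Despite the small step in GRHL2 RNA, genes differed in both directions. Of 24671 genes tested, 378 were higher in siGRHL2a than in the averaged siTP63b and siSOX2b libraries (1.53% of all) and 186 were lower (0.754%), at an adjusted p below 0.05 and a log2FC beyond 0.75. Of these, 375 of the 378 and 182 of the 186 had the same sign against siTP63b and against siSOX2b. The stricter condition, an adjusted p below 0.05 against each, left 164 higher genes (0.665%) and 99 lower genes (0.401%), of which 104 and 66 were protein coding. These are the genes called against each in what follows. All 3 siGRHL2a libraries lay above the other 6 in 160 of the 164 (in 1672, 6.78%, of all genes tested) and below them in 93 of the 99 (in 1606, 6.51%, of all), a separation that the choice of these genes on the same libraries largely fixes. Tested against a fold change of 0.75 on the log2 scale instead of 0 (edgeR's glmTreat), 21 genes were higher and 24 lower, and 4 and 5 were so against each, so most of the sizes cannot be placed above the threshold itself.

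The 2 contrasts share the siGRHL2a libraries, so their agreement in sign is partly built in. siGRHL2a differed from siTP63b in 702 higher and 470 lower genes and from siSOX2b in 459 higher and 213 lower genes at the same thresholds. The first principal component of the 9 libraries (42.0% of the variance) set siTP63b apart, and the second (25.3%) set siGRHL2a apart from both other groups. The siGRHL2a libraries had scores of 18.0, 19.7 and 19.6 on that second component, the siTP63b libraries between -3.97 and -2.83, and the siSOX2b libraries between -18.7 and -13.7.

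**Figure D1:**
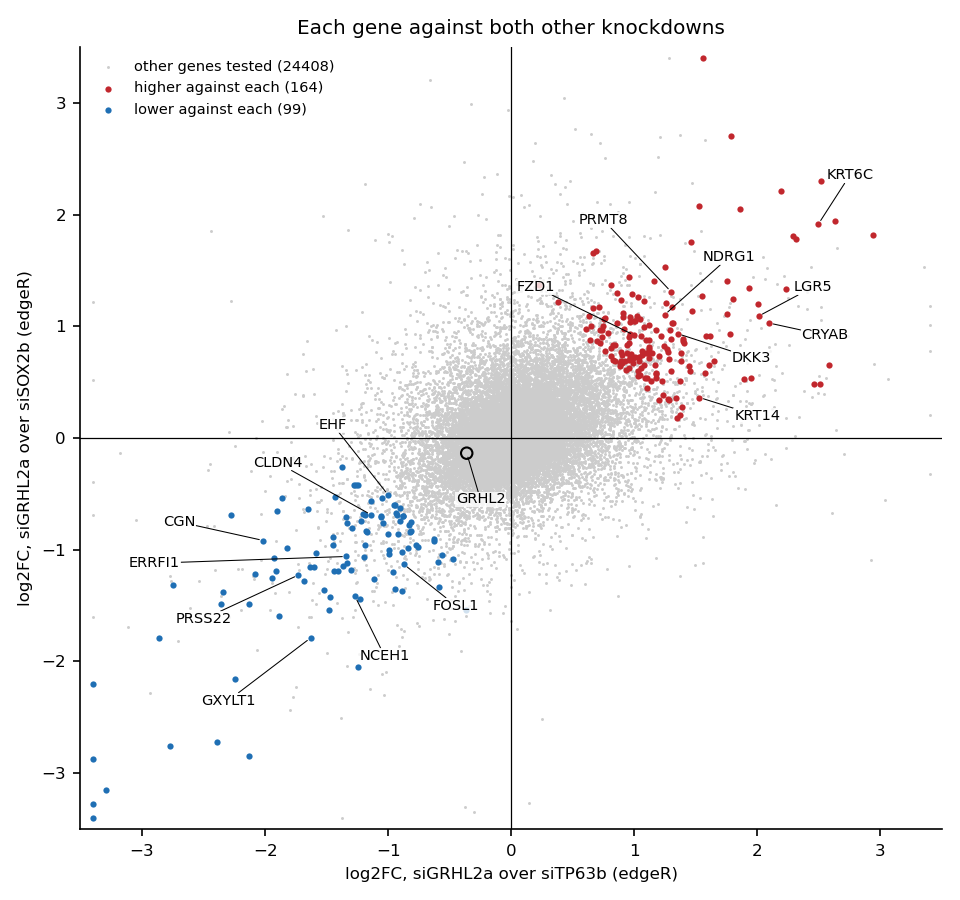
Log2FC of every gene tested in siGRHL2a against siTP63b (horizontal) and against siSOX2b (vertical). Values beyond the axes are drawn at the edge. The 164 genes higher against each are in red, the 99 lower against each in blue, and GRHL2 is circled at -0.36 and -0.14, inside the cloud of the other genes.

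Single genes of epithelial junctions were lower in siGRHL2a. CGN encodes cingulin, a cytoplasmic scaffold protein of the tight junction. CGN had 1.97, 2.29 and 2.63 CPM in siGRHL2a, 8.22, 9.37 and 10.2 CPM in siTP63b, and 4.21, 4.15 and 4.68 CPM in siSOX2b. Its groups did not overlap, and its log2FC was -1.47 (SE 0.147, adjusted p = 7.83e-09, edgeR), or -2.01 against siTP63b and -0.92 against siSOX2b. CLDN4, a claudin that seals the tight junction and a known GRHL2 target, had 12.2, 10.2 and 14.1 CPM against 27.2, 25.4 and 27.6 in siTP63b and 19.9, 19.96 and 18.8 in siSOX2b. Every siGRHL2a library was below every other one, with a log2FC of -0.91 (SE 0.089, adjusted p = 4.35e-09). Both genes had higher means in siNC1 as well, at 6.86 CPM for CGN and 16.8 CPM for CLDN4, although for CLDN4 the lowest siNC1 library (14.04 CPM) lay just under the highest siGRHL2a library. In siKLF5b the CGN mean was also higher, at 5.76 CPM. CLDN4, at 7.76 to 8.77 CPM in siKLF5b, lay below all siGRHL2a libraries.

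CGN was also the single gene, among the called genes with a promoter in the RefSeq table, whose promoter window held the searched grainyhead motif, and its sequence is shown for that reason. The window is part of the RefSeq promoter (build GRCh38.p14, plus strand, chr1:151511314-151511413), capitals mark the match, and the match begins 27 bases before the RefSeq start site.

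CGN promoter: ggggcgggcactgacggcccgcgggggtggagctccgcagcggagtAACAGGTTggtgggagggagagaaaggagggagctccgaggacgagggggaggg

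The motif was searched on both strands as AACCGGTT, the palindromic core, and as AACCNGTT, which contains the first, in the 250 bases before and 50 after each RefSeq start site. AACCNGTT, read here on the minus strand, was found in 1 of 57 promoters of genes lower against each (1.75%), in 0 of 79 of those higher, and in 205 of 13565 promoters of all genes tested (1.51%). AACCGGTT was found in 0 of 57, 0 of 79 and 21 of 13565 (0.155%). The share among the lower genes was thus close to that of all genes tested, and distal enhancers were not searched.

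Other junction genes gave smaller differences. Of 42 tested genes of tight and adherens junctions, 2 were lower (CGN and CLDN4, both against each) and 0 were higher, or 4.76% lower where 0.754% of all genes tested were lower and 0.401% lower against each, with a median log2FC of -0.19 against 0.020 for all genes tested. That median was -0.27 against siTP63b and 0.0036 against siSOX2b. CXADR, a junctional adhesion molecule and virus receptor, was at 24.3, 22.3 and 21.8 CPM in siGRHL2a, 41.1, 40.3 and 39.0 in siTP63b and 33.1, 38.4 and 32.1 in siSOX2b, and its log2FC of -0.71 (adjusted p = 7.30e-09) stayed short of the threshold on size. CDH1, the E-cadherin of adherens junctions, had a log2FC of 0.10 (adjusted p = 0.177).

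Of 19 tested membrane serine proteases, their inhibitors and substrates, 2 were lower, both against each (10.5% of the list, against 0.754% of all genes tested), and 0 were higher, with a median log2FC of -0.20. PRSS22, a tryptase-like serine protease of airway epithelium, had 5.22, 5.21 and 5.56 CPM in siGRHL2a, 17.4, 16.4 and 19.2 in siTP63b and 12.4, 12.5 and 12.5 in siSOX2b. Its log2FC was -1.48 (SE 0.101, adjusted p = 3.36e-12), and the siNC1 libraries (13.2 to 17.2 CPM) also lay above siGRHL2a. TMPRSS13, a transmembrane serine protease of stratified epithelia, had 5.68, 3.85 and 5.20 CPM against 14.8, 14.1 and 15.4 in siTP63b and 10.2, 10.5 and 9.28 in siSOX2b. It was lower by a log2FC of -1.31 (SE 0.118, adjusted p = 9.27e-10), and at 12.5 to 15.4 CPM siNC1 was again above siGRHL2a. TMPRSS4, a related protease, had -0.70 (adjusted p = 4.68e-06), and SCNN1A, an epithelial sodium channel subunit that such proteases activate, had -0.35 against the mean but 0.067 against siSOX2b.

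**Figure D2:**
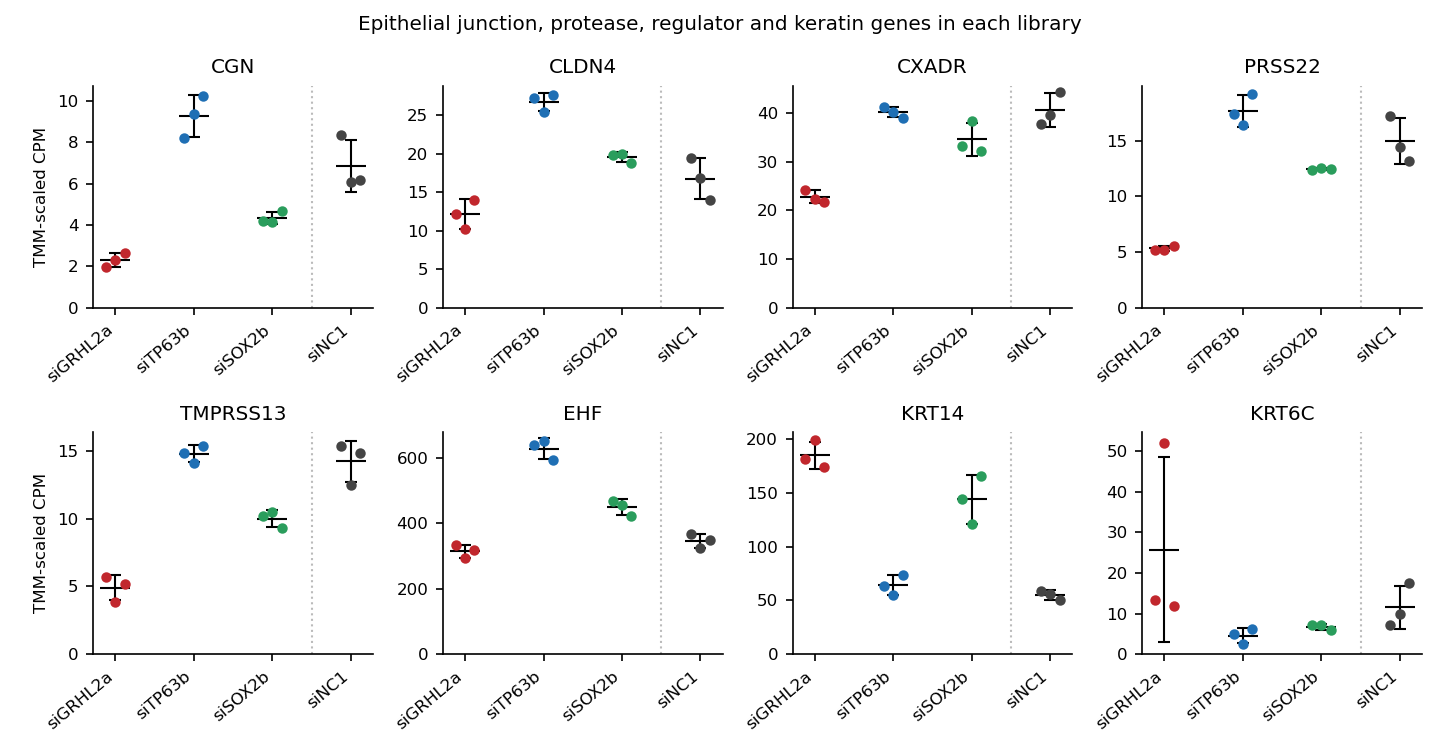
TMM-scaled CPM of 8 epithelial genes in siGRHL2a, siTP63b, siSOX2b and siNC1, on axes that start at 0. Points are libraries and bars the mean and SD of 3. Among the groups shown, CGN, CLDN4, CXADR, PRSS22, TMPRSS13 and EHF are lowest in siGRHL2a by their means. KRT14 and KRT6C are highest there, the latter with 1 library at 52.1 CPM and the other 2 at 11.9 and 13.3.

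EHF, an ETS factor of epithelial differentiation, had 332, 293 and 318 CPM in siGRHL2a, 639, 652 and 593 in siTP63b, and 469, 455 and 422 in siSOX2b. Its log2FC was -0.76 (SE 0.050, adjusted p = 1.79e-12), just past the threshold, with -0.998 against siTP63b and -0.51 against siSOX2b. Its siNC1 mean of 346 CPM was nearer to siGRHL2a than to either other knockdown. Of 21 tested members of the grainyhead family and epithelial regulators, 0 were higher and 2 lower (9.52%, against 0.754% of all genes tested), of which EHF alone was lower against each (0.401% of all). The list held the targets GRHL2, TP63, SOX2 and KLF5, and its median log2FC was -0.10. TFAP2C, an AP-2 factor, had -0.53 (adjusted p = 1.41e-06), and ELF3, an ETS factor like EHF, had -0.41 (adjusted p = 2.21e-04) with an overlapping gene at 181% of its counts and -0.14 against siSOX2b (adjusted p = 0.314). The paralogues GRHL1 and GRHL3 had -0.19 (adjusted p = 0.405) and 0.03 (adjusted p = 0.868).

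Of 7 tested regulators of mesenchymal transition, 1 was higher against the mean (1.53% of all genes tested were), 0 against each and 0 lower, with a median log2FC of 0.064 against the mean and -0.03 against siTP63b. That gene was ZEB1, a repressor of epithelial genes, with 3.25, 4.10 and 3.06 CPM in siGRHL2a, 1.79, 0.985 and 2.81 in siTP63b and 2.26, 2.57 and 1.68 in siSOX2b. Its log2FC was 0.78 (SE 0.215, adjusted p = 8.84e-03), an overlapping gene held 105% of its counts, and without siGRHL2a replicate 2 it was 0.64 with an adjusted p of 0.0889. TCF4 had 0.40 and passed against both, whereas SNAI2 and HMGA2 had 0.38 and -0.40 against the mean and 0.04 and -0.10 against siSOX2b, where neither passed. The siNC1 means of ZEB1 and TCF4, 4.14 and 85.3 CPM, lay above the siGRHL2a means of 3.47 and 69.9 CPM. For SNAI2 and HMGA2 siNC1 lay below siGRHL2a, at 145 against 252 CPM and 77.6 against 84.8 CPM. Of 30 tested mesenchymal markers 0 were called in either direction, with a median of 0.19 against the mean and 0.069 against siSOX2b. Among them TNC, a matrix glycoprotein, had 0.66 against the mean and -0.21 against siSOX2b, MMP2, a matrix metalloprotease, had 0.43, and AXL, a receptor kinase, had -0.52 (-0.0032 against siSOX2b). Of the 30, 23 lay above 0, where 13167 of all 24671 genes tested did. Chosen after their values were seen, FBN1, the matrix protein fibrillin-1, had 0.71, LOXL2, a matrix cross-linking enzyme, 0.63 and VIM, the intermediate filament vimentin, 0.57, each with an adjusted p below 0.05 in the same direction against both knockdowns and short of the threshold on size. Genes overlapping LOXL2 and VIM held 1529% and 219.5% of their counts. TGFB2, a TGF-beta ligand chosen in the same way, lay the other way at -0.19. It was lower with an adjusted p below 0.05 against both knockdowns, at -0.15 against siTP63b and -0.22 against siSOX2b.

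Keratins formed the list with the largest share of higher genes. Of 22 tested keratins 7 were higher (31.8%, against 1.53% of all genes tested) and 1 lower (4.55%, against 0.754%). Against each, 5 were higher and 1 lower, where 0.665% and 0.401% of all genes tested were so called. The median log2FC was 0.47 against the mean, 0.58 against siTP63b and 0.31 against siSOX2b. KRT14, the partner of KRT5 in basal cells, had 182, 199 and 175 CPM in siGRHL2a, 63.4, 55.1 and 73.9 in siTP63b, and 145, 121 and 166 in siSOX2b. All siGRHL2a libraries were above the other 6, with a log2FC of 0.95 (SE 0.072, adjusted p = 3.73e-11) that was 1.53 against siTP63b and 0.36 against siSOX2b. KRT17, a keratin of activated squamous cells, had 1215, 1347 and 1249 CPM against 496, 411 and 562 in siTP63b and 1094, 987 and 1216 in siSOX2b. Its siGRHL2a and siSOX2b libraries overlapped at 1215 and 1216 CPM, and its log2FC was 0.79 against the mean and 0.21 (adjusted p = 0.0452) against siSOX2b alone. For KRT14 and KRT17 the difference from siTP63b was thus larger than that from siSOX2b, and the siNC1 means were 55.1 and 627 CPM.

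KRT6C and KRT6B, keratins of activated and suprabasal epithelium, had the largest log2FC of the protein-coding genes named by rule, but 1 library carried much of each. KRT6C had 13.3, 52.1 and 11.9 CPM in siGRHL2a, 5.09, 2.48 and 6.16 in siTP63b, and 7.09, 7.30 and 5.96 in siSOX2b. Its log2FC of 2.21 (SE 0.269, adjusted p = 2.66e-07) was 1.18 without siGRHL2a replicate 2. KRT6B had 6.49, 3.46 and 16.3 CPM in siGRHL2a, against 0.7499 to 2.88 in siTP63b and 1.59 to 3.45 in siSOX2b, and its log2FC of 2.05 (SE 0.297, adjusted p = 4.89e-06) was 1.24 without siGRHL2a replicate 3. These genes are near-identical in sequence to each other and to KRT6A, which had a log2FC of 0.34. Uniquely aligned reads alone were counted, how reads of such copies were divided was not tested, and the separate values are therefore uncertain. KRT1, a keratin of differentiating epidermis, was also higher against each, at low level (2.38 in log2FC, 1.08 CPM in siGRHL2a). KRT5 had 0.49 (adjusted p = 8.01e-10).

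The keratin that was lower was KRT18, a keratin of simple epithelium. It had 156, 167 and 148 CPM in siGRHL2a, 411, 381 and 430.2 in siTP63b and 197, 181 and 186 in siSOX2b, and its log2FC was -0.82 (SE 0.052, adjusted p = 8.94e-13). The groups did not overlap, but KRT8, its partner keratin, overlaps KRT18 in the annotation and held 204% of its counts. The log2FC of KRT18 was -1.37 against siTP63b and -0.26 against siSOX2b, and that of KRT8 was -0.98 and 0.027 (adjusted p = 0.794).

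Of 19 tested desmosome and hemidesmosome genes 0 were called and 14 lay above 0 (13167 of all 24671 genes tested did), with a median log2FC of 0.23 against the mean and 0.12 against siSOX2b. DSC3, a desmosomal cadherin, had 0.73 (adjusted p = 4.54e-13), with 309, 295 and 306 CPM in siGRHL2a, 148, 144 and 149 in siTP63b and 239, 228 and 216 in siSOX2b. DSG3 and COL17A1 had 0.49 and 0.52 and passed against both knockdowns, whereas ITGA6 had 0.58 against the mean and 0.11 against siSOX2b (adjusted p = 0.176). The siNC1 means of DSC3 and ITGA6, 284 and 950 CPM, were nearer to siGRHL2a (303 and 1038 CPM) than to siTP63b (147 and 499 CPM). For DSG3 siNC1 had 116 CPM, against 142 in siGRHL2a and 104 in siSOX2b. For COL17A1 it had 122 CPM, below siGRHL2a, siTP63b and siSOX2b (417, 262 and 321 CPM). Chosen after its value was seen, DSC2, another desmosomal cadherin, lay the other way at -0.31, with -0.41 and -0.21 against siTP63b and siSOX2b. Of 24 tested basement membrane and integrin genes 1 was higher, also against each (4.17%, where 1.53% and 0.665% of all genes tested were so called), and 0 lower, with 20 of the 24 above 0 and a median of 0.19. COL7A1, the collagen of anchoring fibrils, had 157, 193 and 195 CPM in siGRHL2a, 68.2, 59.9 and 87.7 in siTP63b and 141, 129 and 155 in siSOX2b, with a log2FC of 0.85 (SE 0.077, adjusted p = 1.03e-09) of which 0.36 remained against siSOX2b. LAMB3, HSPG2 and COL4A6 had 0.63, 0.42 and 0.47, of which COL4A6 did not pass against siSOX2b (0.13), and ITGB6, an epithelial integrin chosen after its value was seen, had -0.45. Genes of the cornified envelope gave 1 higher and 1 lower of 37 tested (2.70% each, where 1.53% of all genes tested were higher and 0.754% lower), 0 against each, with a median of -0.061 against the mean, 0.10 against siTP63b and 0.0069 against siSOX2b. EMP1 had -0.62 against the mean and 0.0069 against siSOX2b, and ANXA1, ELOVL4 and CALML3 had -0.38, -0.53 and 0.52, the last with -0.16 against siSOX2b.

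Calls among signalling genes fell on a few members of each list. Of 45 tested Wnt and Notch genes 5 were higher and 1 lower, and 4 were higher against each (DKK3, FZD1, HES2 and WNT4), where 1.53%, 0.754% and 0.665% of all genes tested were so called, with a median log2FC of 0.16. FZD1, a Wnt receptor, had 95.4, 92.0 and 98.9 CPM in siGRHL2a, 44.4, 44.7 and 54.1 in siTP63b, and 52.9, 45.4 and 53.2 in siSOX2b. Its log2FC was 0.96 (SE 0.062, adjusted p = 1.14e-12), nearly the same against siTP63b (1.00) and siSOX2b (0.92), and siNC1 was lower still at 31.3 CPM. DKK3, a secreted protein of the Dickkopf family, had 221, 207 and 218 CPM against 88.8, 80.1 and 83.9 in siTP63b and 111, 103 and 124 in siSOX2b, with a log2FC of 1.14 (SE 0.053, adjusted p = 8.89e-16). USP47, which overlaps DKK3, held 71.5% of its counts. HES2, a transcriptional repressor of the HES family, had 1.09, and WNT4, a Wnt ligand, had 1.07. DLL1, a Notch ligand, had 0.92 against the mean and 0.16 against siSOX2b, with an overlapping gene at 252% of its counts.

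LGR5, the R-spondin receptor that marks epithelial stem cells, was among the 10 leading higher genes although it was not on that list. It had 10.4, 10.2 and 8.49 CPM in siGRHL2a, 2.54, 2.44 and 2.21 in siTP63b and 5.19, 3.54 and 4.95 in siSOX2b, and 0.841 to 1.43 in siNC1. Its log2FC was 1.55 (SE 0.131, adjusted p = 2.99e-10), and all 3 siGRHL2a libraries lay above the other 6. BMP2, a secreted ligand, was the higher gene among 30 tested TGF-beta and BMP genes, with 7.07, 7.68 and 5.75 CPM against 2.44, 2.41 and 2.92 in siTP63b and 3.67, 3.12 and 4.42 in siSOX2b (log2FC 1.14, SE 0.143, adjusted p = 4.42e-07). TGFBR3, the TGF-beta co-receptor betaglycan, was lower against each in the same list at -0.88 (SE 0.117, adjusted p = 1.15e-06). NOG, a BMP antagonist, was the second lower gene against the mean and was not called against each. The list had 1 of 30 higher (3.33%, where 1.53% of all genes tested were) and 2 lower (6.67%, where 0.754% were), with a median of -0.0032 against the mean, -0.14 against siTP63b and 0.09 against siSOX2b, and SMURF2 and FST had -0.45 and 0.34 (FST 0.14 against siSOX2b, not passing).

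In the EGFR family the receptor and its feedback inhibitor pointed in opposite directions. ERRFI1 encodes an inhibitor that binds activated EGFR. ERRFI1 had 26.4, 21.1 and 23.9 CPM in siGRHL2a, 58.3, 64.0 and 58.3 in siTP63b and 49.2, 56.4 and 42.8 in siSOX2b, with siNC1 at 39.9 to 42.6 and siKLF5b at 26.2 to 26.6. Its log2FC was -1.20 (SE 0.079, adjusted p = 1.43e-12), the single call among 15 tested members (6.67%, where 0.754% of all genes tested were lower). EGFR itself had 1650.0, 1570.0 and 1592 CPM against 1030.0 to 1099 in siTP63b and 957 to 1082 in siSOX2b, without overlap. Its log2FC of 0.64 (SE 0.043, adjusted p = 2.82e-12) was below the threshold on size, as were those of the ligand TGFA (-0.70) and the receptor ERBB3 (-0.68, with an overlapping gene at 278% of its counts). The list median was -0.18 against the mean, -0.24 against siTP63b and 0.02 against siSOX2b.

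Of 24 tested AP-1 and immediate early factors, 0 were higher and 2 were lower, both against each (0.754% of all genes tested were lower and 0.401% against each), with a median of -0.14. FOSL1, the AP-1 subunit FRA1, had 13.2, 13.3 and 11.8 CPM in siGRHL2a, 23.5, 20.3 and 26.4 in siTP63b, and 27.6, 29.1 and 27.3 in siSOX2b. Its log2FC was -1.002 (SE 0.086, adjusted p = 3.72e-10), whereas siNC1 was lower than all of them, at 5.37 to 5.49 CPM. The second was SPRY4, a feedback inhibitor of receptor kinase signalling, at -0.96 with an overlapping gene at 195% of its counts. DUSP4 and ETV5, both induced by the ERK pathway, had -0.51 and -0.69, and JUN, another AP-1 subunit, had 0.63 (0.17 against siSOX2b, not passing). Of 21 tested YAP and TEAD targets 0 were called, with CRIM1, CCN1, F3 and AXL at 0.42, -0.48, -0.33 and -0.52 and a list median of -0.15 (-0.18 against siTP63b and -0.0032 against siSOX2b). Of these CCN1 alone passed against both knockdowns, while CRIM1 and F3 did not pass against siTP63b (0.12 and -0.07). VGLL1, a cofactor of TEAD factors that was not on that list, was lower against each, with 1.27, 1.39 and 1.96 CPM in siGRHL2a, 4.63 to 5.98 in siTP63b and 2.56 to 3.54 in siSOX2b (log2FC -1.40, SE 0.188, adjusted p = 1.35e-06).

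Guidance and neural genes gave 1 higher and 1 lower of 37 tested, both against each (2.70% each way, where 0.665% of all genes tested were higher and 0.401% lower against each), with a median of 0.11. SEMA5A, a semaphorin, was the higher gene (0.92, with an overlapping gene at 54.5% of its counts) and NRP2, a semaphorin co-receptor, the lower (-1.15). PTPRZ1, the receptor tyrosine phosphatase on which the study centres, had 111, 96.7 and 103 CPM in siGRHL2a, 75.8, 72.4 and 68.3 in siTP63b and 73.5, 67.8 and 60.6 in siSOX2b. Its siGRHL2a libraries lay above the other 6, and its log2FC was 0.57 (SE 0.059, adjusted p = 1.15e-08), short of the threshold on size. In siNC1 it had 202, 199 and 207 CPM, above all 9 libraries. EPHA2 and EFNB1, a receptor and a ligand of the ephrin system, had -0.61 and 0.64, of which EFNB1 did not pass against siSOX2b (0.09).

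The smallest adjusted p, though not the largest log2FC, belonged to a gene outside these groups. GXYLT1, which adds xylose to glucose on Notch and related proteins, had 39.99, 38.7 and 36.4 CPM in siGRHL2a, 121, 119.7 and 115 in siTP63b and 136, 149 and 112 in siSOX2b. Its log2FC was -1.71 (SE 0.069, adjusted p = 4.59e-17, the smallest of all genes tested). The siNC1 libraries had 39.3, 40.9 and 40.7 CPM, which was the siGRHL2a level and not that of the other 2 knockdowns. In siKLF5b GXYLT1 was lower still, at 27.0 to 27.8 CPM. PGM2L1, an enzyme that makes glucose bisphosphate, was likewise lower in siGRHL2a than in siTP63b and siSOX2b, with siNC1 next to it. It had 7.71, 6.81 and 6.48 CPM in siGRHL2a, 25.6 to 27.8 in siTP63b, 13.9 to 18.7 in siSOX2b and 7.63 to 8.50 in siNC1 (log2FC -1.598, SE 0.0999, adjusted p = 5.32e-13).

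NCEH1, a cholesterol ester hydrolase, was also lower in siGRHL2a, but with siNC1 nearer to the other knockdowns. It had 44.6, 39.1 and 38.4 CPM in siGRHL2a, 96.6, 98.4 and 99.4 in siTP63b, 110.2, 118 and 97.5 in siSOX2b, and 76.8 to 81.0 in siNC1. The siGRHL2a libraries were thus below all others, with a log2FC of -1.34 (SE 0.064, adjusted p = 1.37e-15). The other lower genes of the leading 10 were ROR1, a receptor of the Wnt pathway (-1.38), SERTAD4 (-1.27) and KLHL15, a substrate adaptor of a ubiquitin ligase (-1.24). ROR1 and KLHL15 had siNC1 means of 1.87 and 10.5 CPM, near the siGRHL2a means of 2.46 and 7.997 CPM.

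Among the leading higher genes, CRYAB, a small heat shock protein, had 17.4, 13.7 and 16.3 CPM in siGRHL2a, 4.08, 3.12 and 3.88 in siTP63b and 7.15, 6.24 and 10.1 in siSOX2b. Its log2FC was 1.56 (SE 0.123, adjusted p = 7.38e-11), and siNC1 had 3.52 to 4.25 CPM. NDRG1, a gene induced by hypoxia and differentiation, had 136, 135 and 147 CPM against 68.3, 48.6 and 58.9 in siTP63b and 67.6, 57.4 and 69.5 in siSOX2b. It was higher by a log2FC of 1.18 (SE 0.069, adjusted p = 1.91e-13), while siNC1 lay at 96.9 to 124 CPM, nearer to siGRHL2a. KLHL6, a ubiquitin ligase adaptor (1.60), PRMT8, an arginine methyltransferase known from brain (1.30), SLITRK6, a neuronal membrane protein (1.16), and NWD1 (1.18) made up the rest, none above 14.3 CPM in any of the 9 libraries.

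**Figure D3:**
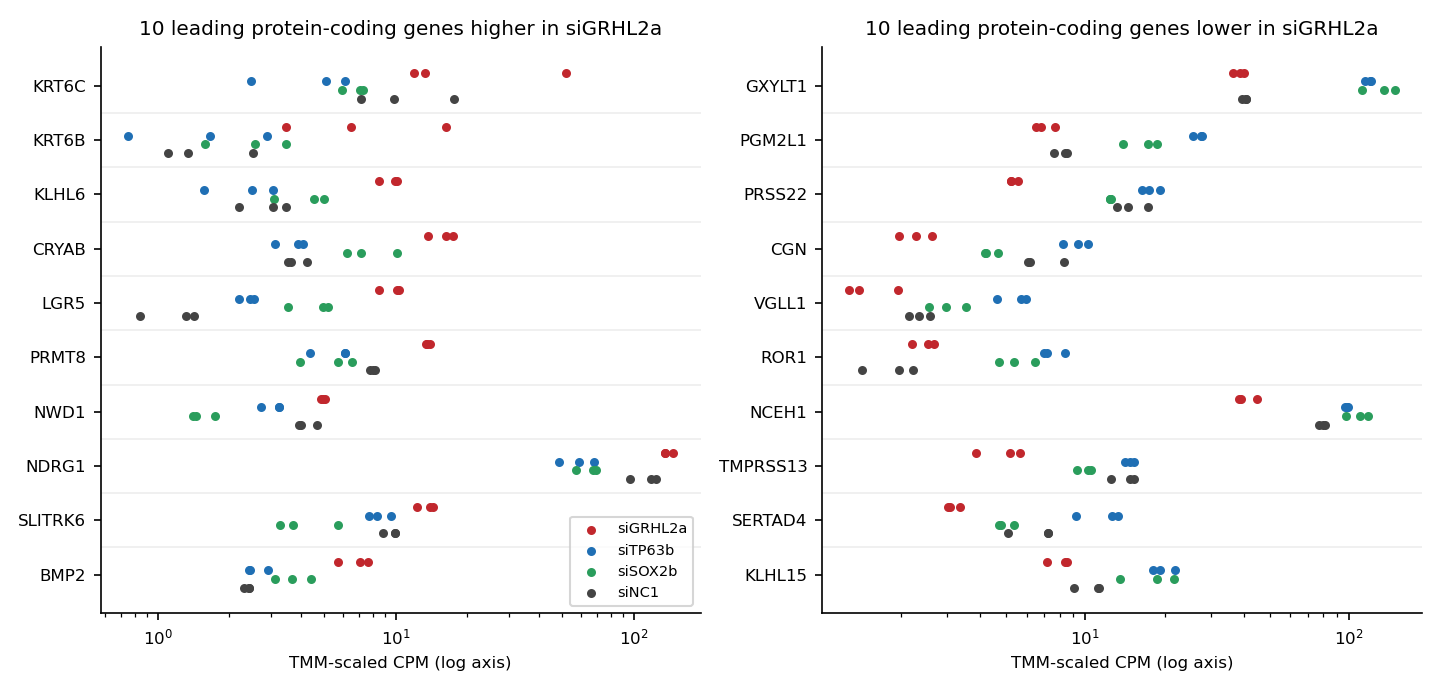
TMM-scaled CPM (log axis) of the 10 leading protein-coding genes in each direction, with each library as a point. In all 20 genes the 3 siGRHL2a points lie outside the range of the 6 siTP63b and siSOX2b points, which the choice of these genes required. The siNC1 points lie with siGRHL2a for GXYLT1 and PGM2L1 but with the other knockdowns for PRSS22 and TMPRSS13.

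The control level split the called genes in several ways. Among the 164 genes higher against each, the siNC1 mean was nearest to siGRHL2a in 63 and farthest from it in 89. It lay below all 3 knockdown means in 35 and above all 3 in 33. Among the 99 lower genes, siNC1 was nearest to siGRHL2a in 57 and farthest in 27, below all 3 in 37 and above all 3 in 6.

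Genes without protein product made up 60 of the 164 higher and 33 of the 99 lower genes. Protein-coding genes were 63.4% of the higher and 66.7% of the lower genes, near their share of all genes tested (61.9%). The leading higher ones were ENSG00000248994, ENSG00000224260 and ENSG00000230960, with log2FC of 1.26, 1.24 and 1.13. The leading lower ones were ENSG00000274173, ENSG00000254471 and ENSG00000258077, with -1.80, -1.48 and -1.13. ENSG00000258077 had 11.2, 9.37 and 9.84 CPM in siGRHL2a, 22.9 to 23.6 in siTP63b and 19.4 to 24.3 in siSOX2b.

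Proliferation and sterol genes lay mostly below 0, with 0 calls (1.53% of all genes tested were higher and 0.754% lower). Of 50 tested DNA replication and mitosis genes 41 were below 0, where 11504 of all 24671 genes tested were, with a median log2FC of -0.20. CDC6, a replication licensing factor, had -0.56 (adjusted p = 1.24e-09), with 99.8, 89.6 and 98.5 CPM in siGRHL2a, 157, 148 and 144 in siTP63b and 133, 136 and 133 in siSOX2b. TOP2A, E2F1 and AURKA had -0.37, -0.53 and -0.37. Of 33 tested genes of cholesterol and fatty acid synthesis 26 were below 0, with a median of -0.21. INSIG1, the sterol-sensing regulator, had -0.72 (adjusted p = 3.50e-11), and HMGCS1 and FDFT1 had -0.33 and -0.31. None of these sizes passed 0.75.

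In the stress lists, 24 tested genes of the unfolded protein and amino acid response held 0 higher genes and 1 lower, CHAC1, a glutathione-degrading enzyme (-1.01, against each), or 4.17% lower where 0.754% of all genes tested were, with a median of -0.081. CHAC1 lay at 0.691 CPM in siGRHL2a, and without siGRHL2a replicate 1 its log2FC was -0.77 with an adjusted p of 0.135, and without replicate 2 -1.05 with 0.0521. PSAT1, STC2, XBP1 and TRIB3 had -0.53, -0.57, -0.44 and -0.54, of which TRIB3 did not pass against siSOX2b (-0.11). Of 26 tested hypoxia and glycolysis genes NDRG1 alone was called (3.85% higher, where 1.53% of all genes tested were), with SLC2A1, SLC2A3 and PGAM1 at 0.57, -0.59 and 0.47 (PGAM1 0.09 against siTP63b, not passing) and a median of 0.049. Of 27 tested NRF2 program genes 0 were called, with TXNRD1, a thioredoxin reductase, at -0.67 (adjusted p = 1.15e-12), SRXN1, NFE2L2 and CBR1 at -0.55, 0.30 and 0.28, and a median of -0.011 against the mean, -0.13 against siTP63b and 0.09 against siSOX2b. Of 29 tested p53 targets 0 were called, with CCNG1, RRM2B, PPM1D and MDM2 at -0.71, 0.49, -0.50 and -0.41 (RRM2B -0.015 against siSOX2b) and a median of 0.0085 against the mean, 0.05 against siTP63b and -0.19 against siSOX2b.

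Of 39 tested interferon-stimulated genes 0 were called, with STAT2, MX1 and GBP3 at 0.36, 0.48 and -0.35 (STAT2 not passing against siTP63b at 0.20, GBP3 not against siSOX2b at -0.12) and a median of -0.035 against the mean, -0.17 against siTP63b and 0.08 against siSOX2b. Of 28 tested cytokine and NF-kB genes 1 was lower (3.57%, where 0.754% of all genes tested were), 0 against each, with a median of -0.066 against the mean and 0.0098 against siSOX2b. That gene, BIRC3, an inhibitor of apoptosis, had 10.3 CPM in siGRHL2a, 56.0 in siTP63b and 11.9 in siSOX2b, and its log2FC of -1.34 against the mean was -2.45 against siTP63b and -0.23 against siSOX2b. IL1A, IL1B and CXCL8 had 0.44, 0.49 and -0.67 against the mean and -0.36, -0.083 and -0.45 against siSOX2b. Of 20 tested replication-dependent histones 0 were called, with a median of 0.028 against the mean, -0.23 against siTP63b and 0.23 against siSOX2b. H2AC6 had 0.55, and H2BC13, H1-3 and H2BC8, with mean counts of 8.56, 16.7 and 11.7, were not shown to differ (adjusted p = 0.123, 0.153 and 0.313).

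Markers of other lineages did not pass the thresholds against the mean. Of 15 tested lung epithelial lineage markers 0 were called, with a median of 0.070 against the mean, -0.07 against siTP63b and 0.24 against siSOX2b, and FOXA1, NKX2-1, AGER and MUC20 had -0.46, 0.55, 0.32 and -0.33 against the mean and 0.42, 0.24, 0.35 and 0.11 against siSOX2b. Against siTP63b these genes had -1.34, 0.85, 0.30 and -0.77, and all but AGER passed the thresholds in that single contrast. Of 12 tested markers of other cell types 0 were called, with CSF1R, VWF, PDGFRB and CD68 at 0.26, 0.49, 0.43 and 0.18 and a median of 0.12. Among these markers, VWF had 0.86 against siSOX2b and PDGFRB 1.04 against siTP63b, both past the thresholds in that single contrast. The summed level of the 12 tested was 96.4 CPM in siGRHL2a, 79.7 in siTP63b and 90.4 in siSOX2b, with the macrophage marker CD68 the most abundant at 34.5, 29.0 and 32.3 CPM (a gene overlapping CD68 held 1568% of its counts, and one overlapping CSF1R 97.7%), and their part in the results was not tested.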

How the data were processed

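Poly(A) RNA of HCC95 cells was sequenced in 15 libraries, 3 for each of 5 siRNAs. The authors aligned the reads with HISAT2 (version 2.2.1) to hg38 and counted uniquely aligned reads per gene with featureCounts (version 2.0.1), and they deposited raw counts without normalization. Counts run over the whole span of each gene, introns included, and whether strand was used is not stated, so reads of overlapping genes cannot be told apart. Overlap is given as the counts of the largest overlapping gene in percent of the gene's own. It is not given beside every gene above. Among those without it, it was 3269% for MUC20, 163% for NKX2-1, 140% for CBR1, 122.6% for CALML3 and 121.6% for SMURF2. It was 102.1% for GRHL3, 101.5% for TNC and 100.9% for SRXN1, and this list is not complete. Gene types came from Gencode, matched by identifier for 61445 of 61544 genes.

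Genes passing filterByExpr were tested with edgeR (version 4.0.16, R 4.3.3) by glmQLFit and glmQLFTest on the 9 libraries of siGRHL2a, siTP63b and siSOX2b, with TMM factors from all 15. P-values were adjusted over all 24671 genes by the method of Benjamini and Hochberg. Called genes passed 0.05 in adjusted p and 0.75 in log2FC, in either direction, and those called against each also had an adjusted p below 0.05 with the same sign in both single contrasts. The SE is the absolute log2FC divided by the square root of the F statistic. Levels are TMM-scaled CPM. On simulated counts for this comparison (24671 genes, 200 changed by a log2FC of 1.5), 200 changed and 5 unchanged genes were called, and 200 and 0 against each. The counts were drawn around a single mean per gene over the 9 libraries, so siTP63b and siSOX2b did not differ in them. Changed genes were taken from the more abundant ones. Recovery of scarce genes, of smaller changes and of genes that differ between siTP63b and siSOX2b was not tested.

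The genes named are the targeted genes, the 10 largest changes in each direction among protein-coding genes called against each and the 3 largest of other types, with a mean of at least 100 counts, no overlap between siGRHL2a and the other 6 libraries and under 50% overlapping counts, and up to 4 members of each gene list with the smallest adjusted p. A few genes that this rule names are not reported here. Other list members, and genes described in the closing section, were added after their values were seen. The comparison, its genes and the lists were chosen with earlier results of these data known. Alternatives were other scalings and filters, DESeq2 (version 1.42.0), a replicate block, all 15 libraries, halved or thinned counts, other thresholds, a single reference group and leaving out each library. Replicates differed by more than sampling noise (chi-square per gene 4.98 to 8.16). Promoters are from RefSeq (GRCh38.p14). Figures were drawn with matplotlib (version 3.10.9).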

Additional observations from a re-analysis of the deposited data

How the results depend on the processing

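Against the mean of siTP63b and siSOX2b, 378 genes were higher and 186 lower. These counts became 21 and 24 when tested against 0.75 with glmTreat, 219 and 115 for protein-coding genes alone (fewer genes tested), 2490 and 2325 with no threshold on log2FC, 191 and 115 at an absolute log2FC above 1, and 702 and 470 against siTP63b alone. The counts against each (164 and 99) became 4 and 5, 807 and 956, and 74 and 58 under glmTreat, no threshold and the threshold of 1. Leaving out each library gave 304 to 432 higher and 155 to 193 lower genes, 138 to 188 and 83 to 107 against each, and a GRHL2 log2FC of -0.26 to -0.23. Of the 164 higher and 99 lower genes called against each, 126 to 154 and 71 to 88 were called again in these fits. GRHL2 had -0.14 (adjusted p = 0.0946) against siSOX2b alone. DESeq2 called 281 and 152 genes, and 133 and 86 against each. The fit over 15 libraries called 509 and 236. With counts halved, 387 genes were higher and 185 lower, and 186 and 99 against each.

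The sign turned for SOX2 against siTP63b alone (-0.55), and against siSOX2b alone for TNC (-0.21), SCNN1A (0.067), EMP1 (0.0069), CALML3 (-0.16), IL1A (-0.36), IL1B (-0.083), KRT8 (0.027), RRM2B (-0.015), FOXA1 (0.42), MUC20 (0.11) and PDGFRB (-0.17). GRHL3, near 0 throughout, had -0.018 with libraries thinned to the smallest total, and -0.029 to 0.058 with 1 library left out. The cause was not tested. With the replicate number as a replicate block, 380 genes were higher and 180 lower, and 174 and 100 against each. Libraries of the same number had correlations of deviations between -0.031 and 0.080, and not every library correlated best with its own number, so the numbers were not taken to pair the libraries. Of 55 named genes passing the thresholds, 53 kept their direction and an adjusted p below 0.05 in each refit that tested them against 0 with both reference groups (other scalings, filters, libraries and tools, but not glmTreat), the exceptions being ZEB1 and CHAC1, each on leaving out a siGRHL2a library.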

Other observations

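Several abundant genes outside the lists were called against each, and they are given as values chosen after they were seen. RAP2B, a small GTPase of the Ras family, had 82.7 ± 4.34 CPM (SD, n = 3) in siGRHL2a, 44.1 ± 1.19 in siTP63b and 39.1 ± 0.745 in siSOX2b, with a log2FC of 0.99 (SE 0.054, adjusted p = 3.82e-14). SIRPA, the receptor of CD47, had 95.2 ± 1.99 CPM against 44.5 ± 3.99 and 56.1 ± 2.65, with a log2FC of 0.93. SFN, the 14-3-3 sigma protein of stratified epithelium, had 724 ± 119 CPM against 320.3 ± 29.1 and 500.3 ± 91.3, with a log2FC of 0.86.

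Others differed mainly from 1 of the knockdowns. TENM2, a teneurin adhesion protein, had a log2FC of 1.34 against siTP63b and 0.18 against siSOX2b. IGFBP3, a binding protein of insulin-like growth factors, had 0.22 against siTP63b and 1.37 against siSOX2b. Among lower genes, ETS1, a transcription factor, had 57.0 ± 2.67 CPM in siGRHL2a, 125 ± 3.17 in siTP63b and 84.2 ± 2.32 in siSOX2b (log2FC -0.85), and LBR, the lamin B receptor, had 124 ± 10.6, 172 ± 0.795 and 261 ± 27.2 (log2FC -0.78). In siNC1 the mean was 29.9 CPM for ETS1 and 235 CPM for LBR, below and between those 3 means.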
